A study of Mus musculus with 4 samples.

Results

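H3K27ac, the acetylation of lysine 27 on histone H3, was examined over 41 potassium channel genes in hearts of dystrophic mice. The 41 genes are autosomal Kcn genes, taken by name from 92 protein-coding autosomal Kcn genes in the annotation and 21281 protein-coding autosomal genes in all. A window was set for each, made of the gene body and the 20 kb upstream of its start (mm9, GENCODE vM1), and every acetylated region centred in a window was taken. This gave 65 of the 12566 regions in the mdx IKKβf/f list and 119 of the 22981 in the mdx HRTΔIKKβ list. The rule that chose the regions used no score or fold. Members and lists were chosen with earlier results of these data known, and the intervals below make no allowance for that.

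Potassium channels carry the outward currents that end the cardiac action potential and hold the resting potential of the heart cell. Voltage-gated Kv channels open on depolarization, inward rectifiers set the resting potential, two-pore channels carry background current, and calcium-activated channels follow intracellular calcium. Many further members of the family work mainly in neurons, smooth muscle or endocrine cells. H3K27ac marks active promoters and enhancers, so a region here is a stretch of chromatin called as acetylated above input. It is not a measure of channel expression or current.

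All mice were mdx, which lack dystrophin, were 7 months old and carried floxed alleles of IKKβ, the kinase that activates NF-κB. In mdx HRTΔIKKβ mice a cre recombinase under the alpha myosin heavy chain (Myh6) promoter deleted IKKβ in cardiomyocytes, and the mdx IKKβf/f control was an age-matched littermate without that cre. ChIP was made on whole hearts, so nuclei of vessels, fibroblasts, nerves and blood cells are in the chromatin with those of cardiomyocytes, in which alone the deletion acts. There was 1 ChIP library and 1 input per genotype and no healthy group, so no difference between genotypes could be set against replicate error, and no p-value is given.

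The libraries held 57852347 and 62458751 tags in mdx IKKβf/f and mdx HRTΔIKKβ. The findPeaks score is read here as the number of tags in the highest 500 bp window. The lowest score listed was 29 in the first list and 30 in the second, where an even spread of tags would give 14.5 and 15.6. Each region was also at least 4-fold over input. The labelled tissue was checked by regions within 3 kb of the start of marker genes. Of 16 cardiomyocyte genes, 2 had one in each list, Myh7 and Ttn in mdx IKKβf/f and Tnnc1 and Myl3 in mdx HRTΔIKKβ. That is 12.5% in each, where 5.29% and 9.43% of all protein-coding genes had one. Myh6, Tnnt2, Actc1, Nkx2-5 and Gata4 had none. Counts were 0 and 1 of 5 fibroblast genes (Col1a1), 0 and 1 of 4 endothelial genes (Cdh5), 0 and 0 of 4 macrophage genes, 1 and 1 of 4 neuron genes (Rbfox3 in both), and 0 and 1 of 5 housekeeping genes (Gapdh). By this measure the lists did not show the heart as their tissue. Most housekeeping starts were not listed, and absence of a region at a channel is not evidence that it lacked the mark.

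Sequences at the centre of the regions that the results turn on are shown first, from the mm9 genome, plus strand, 5′ to 3′, with CG dinucleotides in capitals. The first pair are 200 bases at the centre of a high-scoring region of a channel that acts in heart. In mdx IKKβf/f this was the highest of them, in intron 3 of Kcnn3, with a score of 47. In mdx HRTΔIKKβ the one shown was 3.15 kb upstream of Kcnh2, with a score of 37, second to a region of Kcnn2 that scored 38 and is described without its sequence.
Kcnn3, mdx IKKβf/f, chr3:89418056-89418255: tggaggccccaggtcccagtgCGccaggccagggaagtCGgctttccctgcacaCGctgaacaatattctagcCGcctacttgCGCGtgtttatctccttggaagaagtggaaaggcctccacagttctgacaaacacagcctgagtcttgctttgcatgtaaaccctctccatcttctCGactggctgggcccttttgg
Kcnh2, mdx HRTΔIKKβ, chr5:23860472-23860671: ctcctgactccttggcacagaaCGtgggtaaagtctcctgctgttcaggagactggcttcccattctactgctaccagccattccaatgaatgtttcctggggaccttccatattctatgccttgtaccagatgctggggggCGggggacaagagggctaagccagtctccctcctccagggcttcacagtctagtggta

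The next 3 lie where a region of each list overlapped inside the same channel. They are shown because they are the places in the 41 windows that both hearts listed, together with a 3′ UTR stretch of Kcnip2 that is described without its sequence.
Kcnd3, both lists, chr3:105401079-105401278: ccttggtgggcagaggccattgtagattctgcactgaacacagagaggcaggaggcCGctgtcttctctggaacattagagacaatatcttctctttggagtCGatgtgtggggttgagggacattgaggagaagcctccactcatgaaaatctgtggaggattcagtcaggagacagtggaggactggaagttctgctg
Kcnh1, both lists, chr1:194101754-194101953: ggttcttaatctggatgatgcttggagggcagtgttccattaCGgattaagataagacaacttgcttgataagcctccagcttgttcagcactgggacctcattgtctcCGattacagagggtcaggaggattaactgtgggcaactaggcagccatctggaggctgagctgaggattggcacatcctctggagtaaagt
Kcnn3, both lists, chr3:89437775-89437974: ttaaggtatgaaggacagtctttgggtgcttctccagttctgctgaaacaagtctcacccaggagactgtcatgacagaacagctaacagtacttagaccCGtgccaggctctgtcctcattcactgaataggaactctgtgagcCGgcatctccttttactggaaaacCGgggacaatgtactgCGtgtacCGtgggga

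The last 9 are 150 bases of the regions centred within 1 kb of an annotated start of their own channel. They are shown because starts are where this mark is best known, and they differ from each other in CG content. A further one in Kcnn2 is described without its sequence.
Kcnb2, mdx HRTΔIKKβ, chr1:15303199-15303348: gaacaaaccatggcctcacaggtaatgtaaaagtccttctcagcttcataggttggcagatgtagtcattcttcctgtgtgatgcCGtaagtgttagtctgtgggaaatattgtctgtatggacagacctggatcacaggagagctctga
Kcnd2, mdx IKKβf/f, chr6:21165353-21165502: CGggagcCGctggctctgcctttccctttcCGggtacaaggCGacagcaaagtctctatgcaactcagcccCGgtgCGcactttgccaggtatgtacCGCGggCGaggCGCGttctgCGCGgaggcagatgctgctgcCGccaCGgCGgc
Kcnip1, mdx HRTΔIKKβ, chr11:33892884-33893033: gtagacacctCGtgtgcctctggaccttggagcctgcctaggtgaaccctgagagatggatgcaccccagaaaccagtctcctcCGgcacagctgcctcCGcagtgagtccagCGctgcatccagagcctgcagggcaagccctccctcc
Kcnip4, mdx HRTΔIKKβ, chr5:49281090-49281239: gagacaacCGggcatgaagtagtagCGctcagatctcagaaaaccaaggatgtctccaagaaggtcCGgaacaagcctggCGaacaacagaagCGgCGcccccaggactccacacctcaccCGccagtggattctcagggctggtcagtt
Kcnj6, mdx IKKβf/f, chr16:95220117-95220266: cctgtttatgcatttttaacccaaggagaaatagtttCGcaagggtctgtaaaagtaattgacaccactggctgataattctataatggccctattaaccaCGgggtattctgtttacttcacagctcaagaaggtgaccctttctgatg
Kcnk1, mdx IKKβf/f, chr8:128519360-128519509: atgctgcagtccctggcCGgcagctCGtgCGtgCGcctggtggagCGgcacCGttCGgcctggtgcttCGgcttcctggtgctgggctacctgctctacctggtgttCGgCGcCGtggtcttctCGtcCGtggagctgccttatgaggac
Kcnk10, mdx HRTΔIKKβ, chr12:99813237-99813386: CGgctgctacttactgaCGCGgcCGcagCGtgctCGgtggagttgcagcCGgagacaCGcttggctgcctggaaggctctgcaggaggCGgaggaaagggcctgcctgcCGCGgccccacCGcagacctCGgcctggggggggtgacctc
Kcnq1, mdx IKKβf/f, chr7:150334475-150334624: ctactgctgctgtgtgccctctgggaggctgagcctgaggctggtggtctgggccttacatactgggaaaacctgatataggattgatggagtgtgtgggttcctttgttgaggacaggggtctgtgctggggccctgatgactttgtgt
Kcnt1, mdx HRTΔIKKβ, chr2:25749381-25749530: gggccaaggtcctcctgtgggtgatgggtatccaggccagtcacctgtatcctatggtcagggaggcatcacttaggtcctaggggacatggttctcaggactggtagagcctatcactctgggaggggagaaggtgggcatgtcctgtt

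Only some of these start regions looked like CpG islands by their letters. The 150 bases at Kcnd2 held 16 CG dinucleotides, and those at Kcnk1 and Kcnk10 held 13 each. Those at Kcnq1 and Kcnt1 held 0. Over whole regions, the ratio of observed to expected CpG was 0.6 or more in 2 of 65 and in 2 of 119, namely Kcnd2 and Kcnk1 in mdx IKKβf/f and Kcna1 and Kcnk10 in mdx HRTΔIKKβ. That was 3.08% and 1.68% of member regions, against 1.2% and 1.01% of the whole lists. The median ratio was 0.16 and 0.159.

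**Figure D1:**
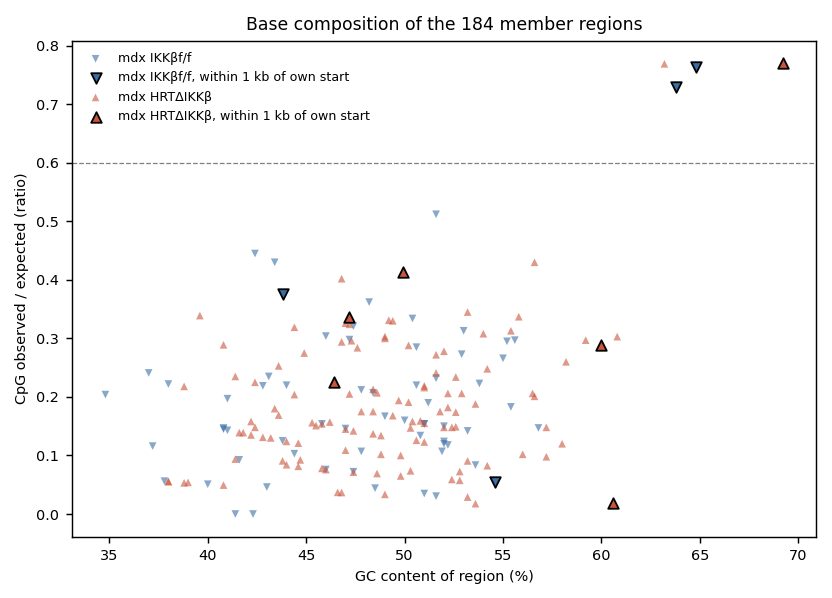
GC content (%, x axis) against the observed over expected CpG ratio (y axis) of each member region in mdx IKKβf/f (blue) and mdx HRTΔIKKβ (red), with outlined symbols for regions centred within 1 kb of a start of their own channel. The dashed line is at 0.6, and 4 regions lie above it, 3 of them outlined.

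Counting over all 41 channels, 65 regions (95% Poisson interval 50.2–82.8) lay in 8.84 Mb of windows in mdx IKKβf/f against 119 (98.6–142) in mdx HRTΔIKKβ. If each list's regions had been placed evenly along their own chromosomes outside gaps, 45.8 and 84.2 would lie there on average. The observed number was 1.42 times the expected (1.1–1.81) in the first list and 1.41 times (1.17–1.69) in the second. Expected numbers were computed without drawing placements, and the intervals cover counting error only, with regions treated as independent.

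On small counts, the channels that act in heart were not shown to lie above their expectation. Over the 18 of them, 17 regions (9.9–27.2) were seen where 12.4 were expected in mdx IKKβf/f, a ratio of 1.37 (0.797–2.19), and 29 (19.4–41.6) where 23.1 were expected in mdx HRTΔIKKβ, a ratio of 1.25 (0.84–1.8). Placed within 5% GC classes of the same chromosome, the expected numbers became 15.7 and 29, and the ratios 1.08 (0.631–1.73) and 1 (0.671–1.44). Both intervals hold 1 under either placement. This depended on which channels were counted as acting in heart. With Kcna7, Kcnk1 and Kcnma1 added, 21 channels, the ratio by chromosome came to 1.5 (0.953–2.26) for the mdx IKKβf/f list. For mdx HRTΔIKKβ it came to 1.41 (1.01–1.93), which leaves 1 out.

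The other 23 members lay above their expectation under both placements, less firmly in mdx IKKβf/f. They held 48 regions (35.4–63.6) and 90 (72.4–111), or 1.44 times (1.06–1.91) and 1.47 times (1.18–1.81) the number expected by chromosome. By GC class the ratios were 1.65 (1.22–2.19) and 1.66 (1.34–2.04). In mdx IKKβf/f the interval by chromosome held 1 with gene bodies alone, 1.36 (0.981–1.84), with the wider heart list, 1.38 (0.993–1.86), and without Kcnh1, 1.26 (0.899–1.71). In mdx HRTΔIKKβ it held 1 among regions at least 8-fold over input, 1.35 (0.785–2.16). The intervals of heart channels and other members overlapped in both lists, so a difference between the 2 classes was not shown.

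Base composition moved with region density across the genome, which is why both placements are given. In mdx IKKβf/f the autosomes held 0.559 regions per Mb in sequence under 35% GC and 19.9 per Mb at 55 to 60% GC, and in mdx HRTΔIKKβ 0.691 and 32.9. Density fell again in the richest sequence, to 4.42 and 9.84 per Mb at 65% GC or more. The windows of heart channels had 42.9% GC and those of the other members 41%, with 41.9% for all autosomes. The 51 Kcn genes that are not members had 46.7% GC, and their ratios of 1.9 (1.26–2.77) and 2.16 (1.64–2.81) by chromosome became 1.14 (0.748–1.65) and 1.29 (0.975–1.68) by GC class. For all protein-coding windows the ratios were 1.04 and 1.07 by chromosome, and 0.906 and 0.935 by GC class.

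**Figure D2:**
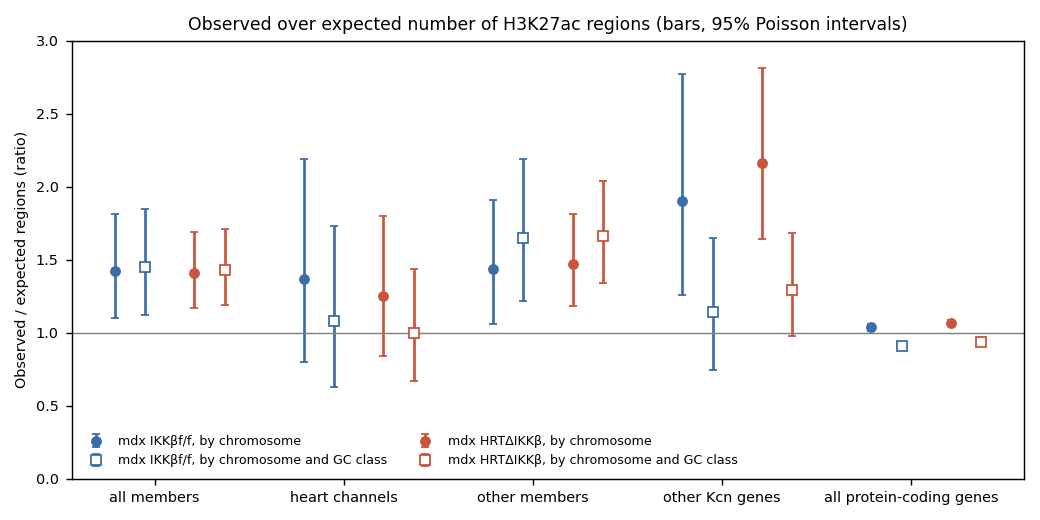
Observed over expected number of regions (y axis, ratio) for the members, their 2 classes, the other Kcn genes and all protein-coding genes in mdx IKKβf/f (blue) and mdx HRTΔIKKβ (red), by chromosome (filled circles) and by chromosome and GC class (open squares), with 95% Poisson intervals as bars. The heart channels move from 1.37 and 1.25 to 1.08 and 1 between the placements, while the other members stay between 1.44 and 1.66.

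Between genotypes the channels followed the lists as a whole. Member regions were 1.83 times as many in mdx HRTΔIKKβ (1.34–2.52), and all autosomal regions 1.83 times as many (1.79–1.87). Heart channels had a ratio of 1.71 (0.907–3.31) and the other members 1.88 (1.31–2.72). Depth and threshold moved with this count. With scores of the mdx HRTΔIKKβ list scaled to the shallower library and held to the same threshold, only regions scoring 32 or more stayed, 71 in the member windows, and the ratio was 1.09 (0.769–1.55). The whole list fell to 13876 regions by the same step, a ratio of 1.11, and heart channels to 17, a ratio of 1. The part of library depth and quality in the larger mdx HRTΔIKKβ list was not tested further, and it cannot be told apart from genotype with 1 library each.

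At least 1 region lay in 27 of 41 windows (65.9%) in mdx IKKβf/f and in 31 (75.6%) in mdx HRTΔIKKβ. Among all protein-coding genes the shares were 22.7% and 36.5%, but the median member window, at 156 kb, was longer than the 35.6 kb of all genes. Among windows of at least 100 kb, 19 of 22 members (86.4%) and 20 of 22 (90.9%) held a region, against 54.4% and 71.9% of all genes with windows of at least 100 kb. Length was not matched further, and these member windows ran from 118 to 1155 kb. The median window was 54.6 kb in heart channels and 248 kb in the others, and 8 and 11 of the 18 heart channels held a region.

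More regions in mdx HRTΔIKKβ than in mdx IKKβf/f were seen in 22 members (53.7%), where the share of all genes was 28.6%. In long windows it was 14 of 22 (63.6%) against 52%. The reverse was seen in 5 members (12.2%) against 11.3% of all genes, and in 3 of 22 long windows (13.6%) against 16.2%. Counts were equal and above 0 in 7 members, and 7 held no region in either list, namely Kcna4, Kcna7, Kcnc1, Kcne1, Kcnj2, Kcnj3 and Kcnj8. No region lay in more than 1 member window.

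**Figure D3:**
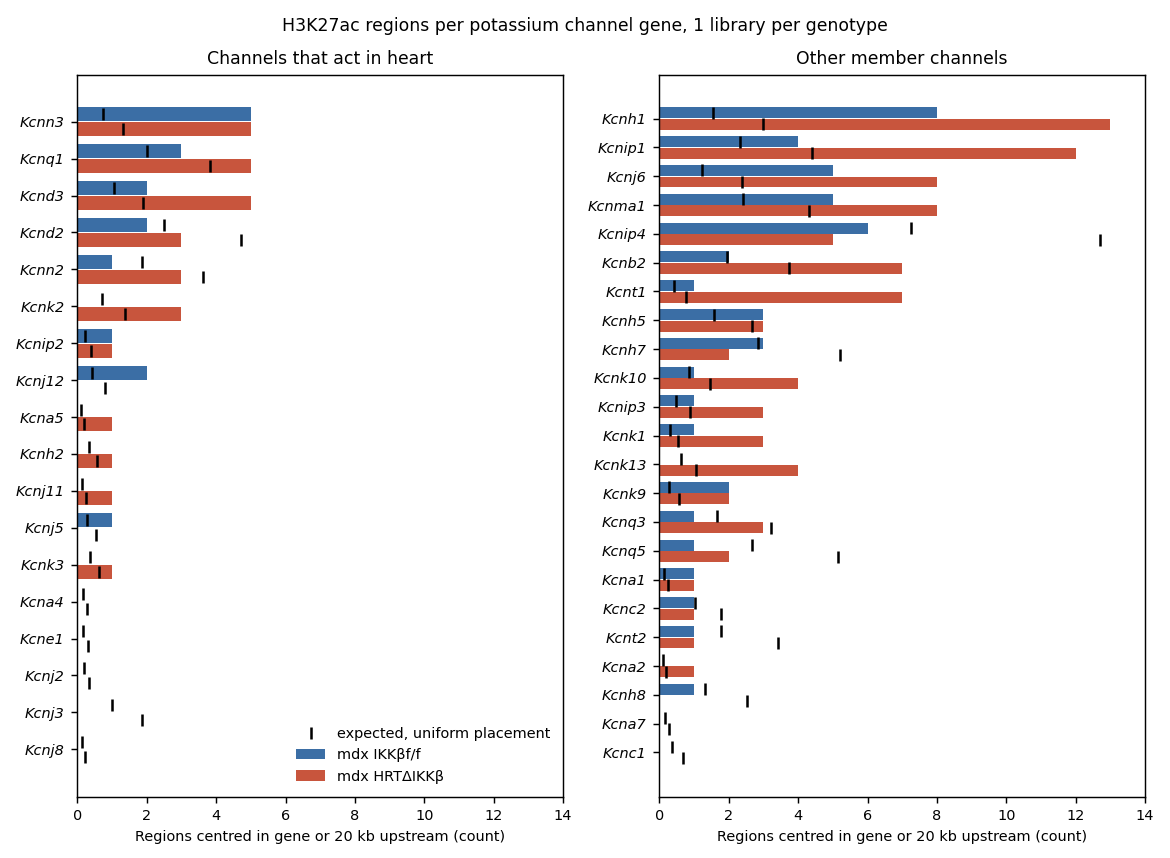
Number of regions (x axis) in the window of each of the 41 channels in mdx IKKβf/f (blue bars) and mdx HRTΔIKKβ (red bars), with black ticks at the number expected by chromosome, for heart channels (left) and other members (right). Kcnh1 has the longest bars, 8 and 13, against ticks at 1.56 and 2.99.

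The channels of the transient outward and ultrarapid currents, which shape early repolarization, held 5 regions in mdx IKKβf/f against 10 in mdx HRTΔIKKβ, where 4.08 and 7.5 were expected. Kcnd3, which encodes Kv4.3 (chr3:105255248-105476920), had 2 and 5 regions, all in intron 2. Its scores were 39 and 40 in mdx IKKβf/f and 33 to 35 in mdx HRTΔIKKβ, so the fewer regions were the higher ones. A pair 8.81 and 10.7 kb from the gene start in mdx HRTΔIKKβ had no partner in the other list, and the nearest was 24.3 kb from that start.

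Kcnd2, which encodes Kv4.2 (chr6:21165503-21679805), had 2 regions and 3. One of those in mdx IKKβf/f was centred 0.07 kb upstream of the gene start, on the CG-rich sequence shown above, with a score of 29, the lowest the list allows. In mdx HRTΔIKKβ the 3 regions lay 343 to 483 kb into intron 1, with scores of 30 to 34. The start of Kcnd2 was thus listed in the control heart and not in the heart without cardiomyocyte IKKβ, at the edge of the threshold.

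Kcnip2, whose product KChIP2 is the accessory subunit of Kv4 channels in heart (chr19:45866329-45890551), had 1 region in each list, and these overlapped by 419 bp in the 3′ UTR of exon 10. Their scores were 29 and 34. Kcna5, which encodes Kv1.5, had 1 region in mdx HRTΔIKKβ, 18.4 kb upstream with a score of 30, and Kcna4, which encodes Kv1.4, had none.

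The delayed rectifier genes held 3 regions and 6, where 2.49 and 4.68 were expected. Kcnq1, the pore subunit of the slow current (chr7:150293159-150612955), had 3 and 5, with scores of 30 to 34 and of 30 to 32. A region of each list lay close together in intron 1, 41.4 kb from the gene start in mdx IKKβf/f against 39.3 kb in mdx HRTΔIKKβ, with a gap of 1.59 kb. The first was centred 0.11 kb from the start of a shorter annotated transcript. Kcnh2, the pore subunit of the rapid current, had 0 and 1, the upstream region printed above. Kcne1, the accessory subunit of the slow current, had none.

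The inward rectifiers went the other way, in small numbers. Kcnj12, which encodes Kir2.2, had 2 regions in mdx IKKβf/f, 8.57 kb upstream with a score of 29 and 44.3 kb into intron 1 with a score of 34, and 0 in mdx HRTΔIKKβ. Kcnj2, which encodes Kir2.1, had 0 in both. A count of 0 allows up to 3.69 regions by its Poisson interval, so these genes did not differ between lists beyond counting error. The acetylcholine-activated channels, which slow the sinus rate under vagal tone, had 1 region in mdx IKKβf/f, in intron 2 of Kcnj5 with a score of 30, and none in Kcnj3.

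The ATP-sensitive channels had 1 region in all. It lay 7.2 kb upstream of Kcnj11, which encodes Kir6.2, in mdx HRTΔIKKβ, with a score of 30, and inside the neighbouring gene Abcc8, which encodes its SUR1 partner. The two-pore channels had 0 regions in mdx IKKβf/f against 4 in mdx HRTΔIKKβ, 3 in introns of Kcnk2 (TREK-1) with scores of 30 to 33 and 1 that lay 13.4 kb upstream of Kcnk3 (TASK-1) with a score of 31. In Kcnk2 the nearest region of the other list was at least 174 kb away. Expected numbers for the pair were 1.08 and 2, so 0 and 4 (1.09–10.2) were both inside counting error.

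The small-conductance calcium-activated channels held 6 regions and 8, where 2.62 and 4.92 were expected. Kcnn3, which encodes SK3 (chr3:89324086-89471683), had 5 in each list (1.62–11.7) where 0.745 and 1.32 were expected by chromosome and 1.77 and 3.52 by GC class. The interval held both expectations by GC class and neither by chromosome. It makes no allowance for Kcnn3 being the heart channel with most regions. Scores in Kcnn3 ran from 29 to 47 in mdx IKKβf/f and from 30 to 35 in mdx HRTΔIKKβ. Regions of the lists lay side by side along its distal introns, with 1 overlap of 266 bp in intron 3 and gaps of 5.77 kb between introns 4 and 5 and of 1.12 kb between exon 8 and intron 7. Without Kcnn3, the ratio of heart channels by chromosome was 1.03 (0.531–1.8) in mdx IKKβf/f against 1.1 (0.705–1.64) in mdx HRTΔIKKβ. Kcnn3 lay further above its expectation than the heart channels as a whole, so leaving it out could only lower these ratios. Kcnn2, which encodes SK2, had 1 region and 3, and in mdx HRTΔIKKβ one lay 0.75 kb past the gene start with a score of 34. Another, 67.1 kb into intron 1, had the score of 38.

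**Figure D4:**
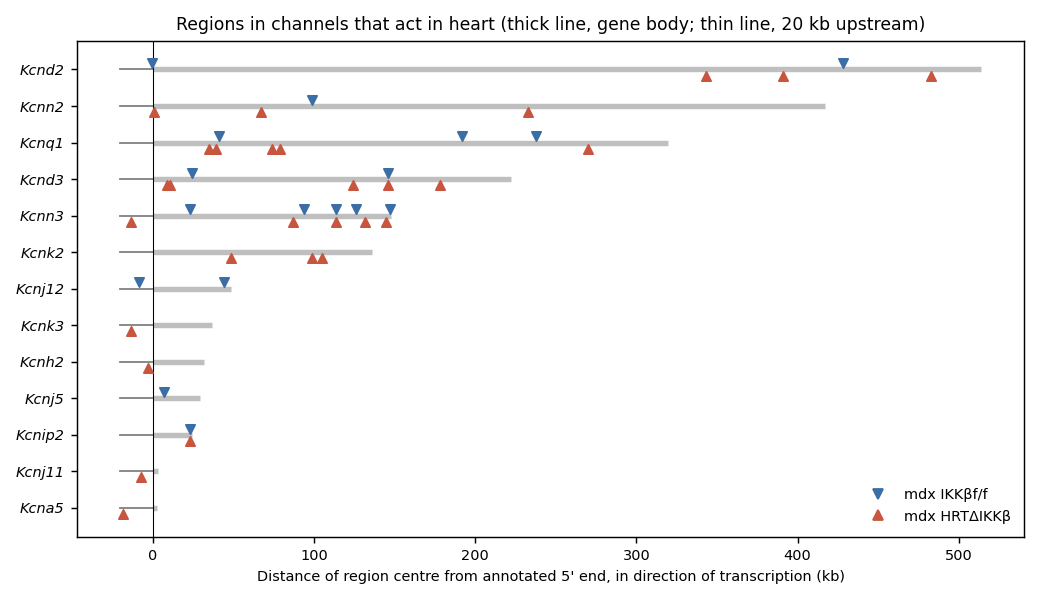
Distance of region centres from the annotated 5′ end (x axis, kb) in the 13 heart channels with a region, in mdx IKKβf/f (blue, above the line) and mdx HRTΔIKKβ (red, below), with the gene body as a thick line and the 20 kb upstream as a thin one. Symbols of the 2 colours coincide in Kcnd3, Kcnn3 and Kcnip2, and most others do not.

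Among the members not known mainly for the heart, Kcnh1 held the most regions in each list. It encodes Kv10.1, a voltage-gated channel known from brain (chr1:194014666-194334041). It had 8 regions (3.45–15.8) in mdx IKKβf/f where 1.56 were expected by chromosome and 2.56 by GC class, and 13 (6.92–22.2) in mdx HRTΔIKKβ where 2.99 and 4.97 were expected. Kcnh1 is described as the highest of the 41, so these intervals make no allowance for that choice. Kcnip1, Kcnj6, Kcnma1, Kcnb2, Kcnt1 and Kcnip4, below, were also among those with most regions in a list. Their intervals make no such allowance either. All but 1 were intronic, and that one lay in the 3′ UTR of exon 11.

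The highest score of any member region in mdx HRTΔIKKβ, 50, was in intron 6 of Kcnh1 and overlapped a region of score 32 in mdx IKKβf/f by 361 bp. A second pair in intron 7, with scores of 41 and 40, was separated by 1.25 kb, and another in intron 10, with scores of 32 and 38, by 2.56 kb. Without Kcnh1, the ratio of all members was 1.29 (0.976–1.67) and 1.3 (1.07–1.58), and that of the other members in mdx HRTΔIKKβ 1.32 (1.05–1.66). In mdx IKKβf/f the interval of all members then held 1, which it did not with Kcnh1. Kcnh1 lay further above its expectation than the members as a whole, so leaving it out could only lower these ratios.

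Kcnip1, which encodes KChIP1, a calcium-binding partner of Kv4 channels in neurons, had 4 regions (1.09–10.2) and 12 (6.2–21). Expected were 2.33 and 4.39 by chromosome and 2.96 and 5.64 by GC class. All 4 of the first and 10 of the second were in intron 1, with scores of 30 to 35 and of 30 to 34 over the whole gene. None overlapped, and the closest pair was 0.71 kb apart. One region in mdx HRTΔIKKβ was 0.03 kb from an annotated start, inside the processed transcript 4930469K13Rik.

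Kcnj6, which encodes the neuronal G-protein-gated channel Kir3.2, had 5 regions (1.62–11.7) and 8 (3.45–15.8), where 1.24 and 2.37 were expected by chromosome and 2.18 and 4.37 by GC class. Its start was listed in mdx IKKβf/f only, 0.89 kb upstream with a score of 32. Kcnma1, the large-conductance BK channel of smooth muscle and nerve, also had 5 and 8, where 2.41 and 4.32 were expected, and all were intronic. Kcnb2, which encodes Kv2.2, had 2 and 7 (2.81–14.4), where 1.95 and 3.74 were expected, with 1 in mdx HRTΔIKKβ 0.74 kb past its start at a score of 38.

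Kcnt1 encodes the sodium-activated channel Slack. In a window of 74.5 kb there was 1 region in mdx IKKβf/f, with a score of 36, and 7 (2.81–14.4) in mdx HRTΔIKKβ, with scores of 30 to 45. By chromosome 0.413 and 0.761 were expected, and by GC class 1.1 and 2.08, since the window had 53% GC. The density in mdx HRTΔIKKβ was 9.4 regions per 100 kb, the highest of the 41 channels. Kcnt1 was described for its high count, and no allowance was made for that. Kcnip4, which encodes KChIP4 and had the longest window at 1155 kb, went the other way, with 6 regions where 7.26 were expected and 5 (1.62–11.7) where 12.7 were. By GC class its expectations fell to 3.1 and 5.65.

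**Figure D5:**
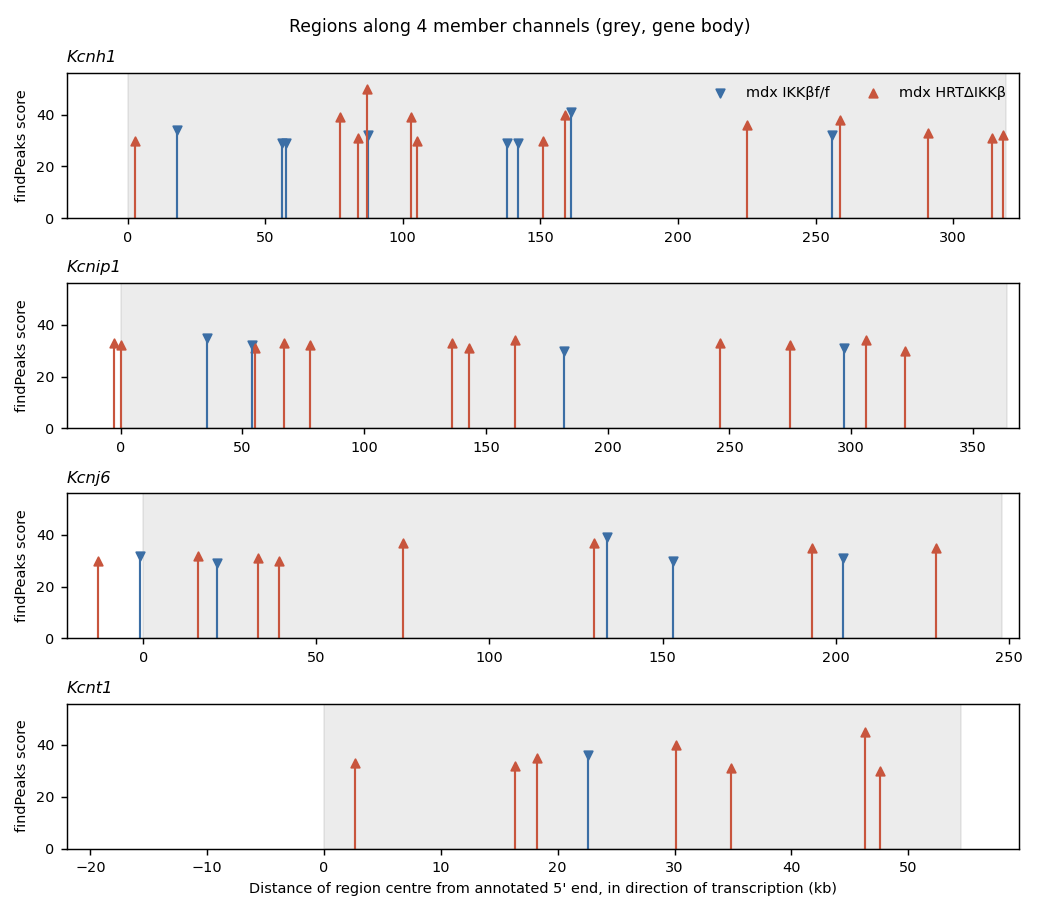
findPeaks score (y axis, tags in the highest 500 bp) of each region against the distance of its centre from the annotated 5′ end (x axis, kb) in Kcnh1, Kcnip1, Kcnj6 and Kcnt1, for mdx IKKβf/f (blue) and mdx HRTΔIKKβ (red), with the gene body in grey. The tallest line is the mdx HRTΔIKKβ region of Kcnh1 at a score of 50, next to one of 32 in mdx IKKβf/f.

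The remaining members had fewer. Kcnk13 had 0 and 4, all in intron 2, and Kcnk10 (TREK-2) had 1 and 4. Kcnk1 (TWIK-1) had 1 and 3, among them a region over exon 1 in mdx IKKβf/f with a score of 36, the one printed above, and another 0.39 kb away in intron 1 in mdx HRTΔIKKβ with a score of 39. Kcnip3 had 1 and 3, and 2 of the 3 lay inside the neighbouring gene Prom2. Kcnh5 had 3 and 3, Kcnh7 had 3 and 2, Kcnq3 had 1 and 3, Kcnk9 had 2 and 2, and Kcnq5 had 1 and 2. Kcna1, Kcnc2 and Kcnt2 had 1 in each list, Kcnh8 had 1 in mdx IKKβf/f, and Kcna2 had 1 in mdx HRTΔIKKβ that lay inside A930002I21Rik.

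Across the members, regions sat mostly in introns. Of the 65 in mdx IKKβf/f, 53 (81.5%) were intronic, 8 upstream and 4 exonic, and of the 119 in mdx HRTΔIKKβ, 103 (86.6%) were intronic, 11 upstream and 4 exonic. The first intron held 19 (29.2%) and 49 (41.2%). The share of the windows that is intron was not computed, so these shares cannot show a preference for introns. Exonic centres lay in coding sequence of Kcnn3 and Kcnk9 in mdx IKKβf/f and of Kcnh7 in mdx HRTΔIKKβ, and otherwise in UTRs of Kcna1, Kcnh1, Kcnip2 and Kcnk1.

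Most regions lay away from a start. More channels had one there than genes at large, but the share of regions near a start was not distinct. Within 3 kb of an annotated start of their own gene there were 9 regions in 9 channels in mdx IKKβf/f and 19 regions in 14 channels in mdx HRTΔIKKβ, and within 1 kb there were 4 and 6. These 9 and 14 channels are 22% and 34.1% of the 41, against 5.29% and 9.43% of all protein-coding genes. There was no matching for the number of annotated starts or of regions per window. Of member regions in mdx HRTΔIKKβ, 17.6% (11.8–25.5) lay within 3 kb of a start of any protein-coding gene, against 9.43% of that list. For mdx IKKβf/f the share was 13.8% (7.46–24.3), against 9.31%. Whole lists also hold regions outside gene windows. Among regions in the windows of all protein-coding genes, 17.3% (mdx HRTΔIKKβ list) or 17.7% (mdx IKKβf/f list) lay that close to a start. The member interval of each list held that value. In mdx IKKβf/f the 9 channels were Kcnd2, Kcnip2, Kcnip4, Kcnj6, Kcnj12, Kcnk1, Kcnk10, Kcnq1 and Kcnq3. In mdx HRTΔIKKβ the 14 were Kcna1, Kcnb2, Kcnd3, Kcnh1, Kcnh5, Kcnh7, Kcnip1, Kcnip2, Kcnip4, Kcnk1, Kcnk10, Kcnn2, Kcnq1 and Kcnt1. Kcnip2, Kcnip4, Kcnk1, Kcnk10 and Kcnq1 were in both.

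Few member regions overlapped one of the other list. In heart channels the share was above that of the lists, but it rested on 3 pairs. The 4 overlapping pairs made up 6.15% of 65 regions (Wilson 95% interval 2.42–14.8) and 3.36% of 119 (1.31–8.32), against 3.19% and 1.74% of the whole lists. Of these pairs 3 were in heart channels, 17.6% of 17 regions (6.19–41) and 10.3% of 29 (3.58–26.4), and both of these intervals lay above the share of the whole list. The same 3 pairs give each share, so the intervals are not separate observations. No allowance was made for GC or for the density of regions in these windows. Within 5 kb of a region of the other list lay 24.6% (15.8–36.3) and 14.3% (9.11–21.7) of member regions, against 17.7% and 10.1% of the lists. Both intervals of all members held the value of the whole list.

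At the 4 overlaps, tags per kb of region, scaled to equal depth, were close between genotypes. They were 12.8 in mdx IKKβf/f against 10.6 in mdx HRTΔIKKβ in Kcnd3, a log2 difference of -0.28. In Kcnn3 they were 10 and 8.96, or -0.16. Kcnip2 had 9.34 and 10.3, a log2 difference of 0.14, and Kcnh1 had 10.7 and 13.5, or 0.34. At 2 overlaps the value was lower and at 2 higher in mdx HRTΔIKKβ, with no replicate to judge either by.

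Scores of member regions were like those of the lists. Median scores were 31 and 32, as in both whole lists, and the highest were 47 and 50 where the lists reached 56 and 73. Scores less than 5 above the threshold made up 70.8% (58.8–80.4) and 73.9% (65.4–81), against 73.6% and 71.2%. Fold over input had medians of 5.51 and 4.92, against 5.16 and 5. At least 8-fold were 23.1% (14.5–34.6) in mdx IKKβf/f, against 14.8% of its list, and 20.2% (13.9–28.3) in mdx HRTΔIKKβ, against 20.7%. In mdx IKKβf/f the members outside the heart class had more of these than their list, 13 of 48 (27.1%, 16.6–41), while heart channels had 2 of 17 (11.8%, 3.29–34.3). Among regions at least 8-fold over input the ratio of observed to expected in that list was 2.17 (1.21–3.57) for all members. These member regions had 0.5 to 4 input tags and scores of 29 to 36. Their high fold thus went with low input rather than with high scores. Wider than 500 bp were 16.9% and 16.8%, against 14.2% and 16%.

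Sequence content was also near that of the lists. Median GC was 48.4% and 49%, against 47.8% in each list, and in heart channels 52.2% and 49.8%. Matches to the κB consensus, the site read by NF-κB, were searched on both strands and counted apart from other motifs. A match was found in 10.8% (5.32–20.6) of member regions in mdx IKKβf/f and in 10.9% (6.5–17.8) in mdx HRTΔIKKβ, against 9.68% and 9.82% of all regions. The letters CCCTC, part of the site bound by CTCF and searched the same way, were in 80% (68.7–87.9) and 69.7% (61–77.3), against 74.3% and 74.2%. Every interval held the share of its list.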

How the data were processed

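H3K27ac ChIP-seq was analysed as the 2 deposited region lists, 1 ChIP library per genotype against its input. Uniquely aligned reads were placed on mm9 by the authors with Bowtie2, who called regions with HOMER findPeaks in histone mode. The HOMER version is not given in the sources used here. The authors deposited for each region normalized tags (a signal, tags per 10000000), a findPeaks score, a fold over input (a ratio, with 0.5 tags in place of 0) and a Poisson p-value over input. The p-value was used only as the filter already applied, 0.0001. Regions under 4-fold had been removed before deposit.

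Members and lists were chosen with earlier results of these data known. Regions were assigned by their centre, and Kcnb2 and Kcnh8, with 43 annotated entries for the 41 symbols, were counted by symbol. The 18 heart channels are those whose currents are described in cardiac muscle. Expected numbers are the mean of even placement over the 19 autosomes outside gaps, by chromosome or by chromosome and GC class of 500 bp tiles. Places follow the longest coding transcript. Intervals are exact Poisson or Wilson at 95% and cover counting error only. Counting code was tested on simulated regions. Named one by one were heart channels with a region, the 5 members with most regions in each list, members with overlapping regions, and members with a region within 3 kb of a start. Alternatives were an 8-fold minimum over input, a score at least 1.5 times the lowest, scaling to the shallower depth, merging within 1000 bp, other windows, any overlap, other heart lists and leaving out the leading member. Tools were SciPy 1.17.1, pandas 2.3.3, matplotlib 3.10.9 and NumPy 2.4.6 under Python 3.11.15.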

Additional observations from a re-analysis of the deposited data

How the results depend on the processing

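The 9 values on member regions (observed over expected by chromosome for all members, heart channels and other members in each list, the 2 counts and the ratio between genotypes) were recomputed under 12 settings, 95 values in all, of which 80 moved by less than their counting interval or, for counts, by less than 1.5 times. The other 15 were as follows. At 8-fold over input or more, 15 and 24 member regions stayed, and in mdx IKKβf/f the ratio to expected was 2.17 for all members and 2.55 for other members. At a score at least 1.5 times the lowest, 1 and 3 stayed, with ratios to expected of 1.84, 7.01 and 0 for all members, heart channels and other members in mdx IKKβf/f, and of 1.71, 0 and 2.4 in mdx HRTΔIKKβ, and a ratio between genotypes of 3. These last rest on 4 regions, and the interval of every ratio to expected at that score held 1. Scaled to the shallower depth, 71 mdx HRTΔIKKβ regions stayed and the ratio between genotypes was 1.09. Leaving out Kcnn3, the heart channel with most regions, was added after seeing the data. No paired analysis was possible because there is 1 library per genotype and no test. For all members in mdx HRTΔIKKβ at 8-fold the ratio to expected was 1.36 (0.872–2.03), an interval that came to hold 1. The interval of the ratio between genotypes also came to hold 1 at 8-fold, 1.6 (0.806–3.28). So did that at a score at least 1.5 times the lowest, 3 (0.241–157). Other intervals that came to hold 1, or no longer held it, are given with the ratios in the report. At this depth most member regions lay within 5 tags of the threshold.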

Other observations

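Of the 51 autosomal Kcn genes outside the 41, Kcnmb2, which encodes an accessory subunit of the BK channel, stood apart with 3 regions in mdx IKKβf/f against 15 in mdx HRTΔIKKβ in a window of 318 kb. Kcng3, an electrically silent Kv subunit, went the other way with 4 and 1. These were picked after their values were seen.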
